A study of Mus musculus with 10 samples.

Results

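Calcineurin is a phosphatase that is switched on by calcium, and in mouse primary lymphatic endothelial cells (LECs) its subunits, its NFAT targets and its Rcan regulators were followed after siRNA against Vegfr2. The set held 10 genes, taken by symbol from the deposited table of 16251 genes: the regulators Rcan1, Rcan2 and Rcan3, the transcription factors Nfatc1, Nfatc2, Nfatc3 and Nfatc4, the catalytic subunits Ppp3ca and Ppp3cb, and the regulatory subunit Ppp3r1. All 10 were in the table, and 9 passed the filter on low counts, Nfatc4 being the exception. RNA was sequenced from 5 libraries of LECs, the cells that line lymphatic vessels, labelled Vegfr2 siRNA (50 nM of an oligonucleotide duplex against mouse Vegfr2) and from 5 libraries labelled control, all at 48 h. Both groups carry the tag siRNA knockdown, and the labels name neither a control oligonucleotide nor the strain of the mice. They do not say whether replicates were separate cultures, so the spread behind each p-value may be technical only.

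When VEGF binds VEGFR2, the receptor encoded by Kdr, phospholipase C gamma is activated, calcium leaves the endoplasmic reticulum, and calcineurin removes phosphates from NFATc proteins, which then enter the nucleus. Rcan proteins bind calcineurin and can inhibit it, and the Rcan1 transcript that begins at the gene's internal start is itself a calcineurin and NFAT target in endothelium, which makes a feedback loop. In lymphatic vessels of mice, Nfatc1 acts with Foxc2 in the formation of valves.

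Libraries held 17946483 to 18239260 estimated reads on genes. Kdr stood at 186 ± 14.8 CPM (reads scaled to a common library size with TMM factors) in siRNA libraries and at 1323 ± 66.3 CPM in control libraries (SD, n = 5 each), 14.0% of the control level. All 9 genes of the lymphatic endothelial list written for the check were detected. Their levels summed to 13541 to 14554 CPM in siRNA and 19014 to 20674 CPM in control libraries. The list includes the general endothelial genes Pecam1 and Cdh5, so its sum is not particular to lymphatic cells. Its genes did not all move alike, as Pdpn rose and Flt4 fell. Blood endothelial markers summed to 775 to 813 CPM in siRNA and 1071 to 1098 CPM in control libraries. The fibroblast and mural list, with 4 of its 12 genes above the filter, summed to 12.6 to 15.3 CPM in siRNA and 12.0 to 16.5 CPM in control libraries. The myeloid list, with Cd68 as its 1 tested gene, summed to 30.3 to 41.0 CPM in siRNA and 42.5 to 50.3 CPM in control libraries, and the epithelial list, with Krt18 as its 1 tested gene, to 7.68 to 8.73 CPM in siRNA and 1.22 to 2.46 CPM in control libraries. The part of these markers in the results was not tested. No deposited marker was at 0 in all libraries, although Csf1r and Krt8 had no read in siRNA libraries and Lum and Rgs5 had none in control libraries.

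Upstream sequence is shown for the members with the 3 largest falls, because NFAT is known to act on the internal start of Rcan1. The 250 bases before an annotated start were read from RefSeq promoters (GRCm38.p6), which matched 8 of the 10 members with 13 starts. Capitals mark the NFAT core GGAAA on either strand (TTTCC on the other one); the core contains GGAA, the core of ETS factor sites, so a match is not particular to NFAT. Rcan1 has starts 66091 bases apart on the minus strand of chromosome 16, at 92466169 and at 92400078. The windows are chr16:92466170-92466419 and chr16:92400079-92400328 for Rcan1, chr17:43801102-43801351 on the plus strand for Rcan2, and chr2:168601658-168601907 on the minus strand for Nfatc2.
Rcan1 first start: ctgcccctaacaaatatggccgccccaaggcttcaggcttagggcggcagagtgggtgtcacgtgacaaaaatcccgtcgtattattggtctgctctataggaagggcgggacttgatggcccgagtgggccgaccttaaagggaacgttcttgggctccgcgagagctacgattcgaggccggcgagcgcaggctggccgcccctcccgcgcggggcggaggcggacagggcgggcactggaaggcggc
Rcan1 internal start: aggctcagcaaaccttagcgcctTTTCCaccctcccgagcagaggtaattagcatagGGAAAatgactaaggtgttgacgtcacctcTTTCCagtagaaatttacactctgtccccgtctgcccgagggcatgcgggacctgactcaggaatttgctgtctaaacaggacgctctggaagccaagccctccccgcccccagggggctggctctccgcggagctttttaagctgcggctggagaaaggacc
Rcan2 first start: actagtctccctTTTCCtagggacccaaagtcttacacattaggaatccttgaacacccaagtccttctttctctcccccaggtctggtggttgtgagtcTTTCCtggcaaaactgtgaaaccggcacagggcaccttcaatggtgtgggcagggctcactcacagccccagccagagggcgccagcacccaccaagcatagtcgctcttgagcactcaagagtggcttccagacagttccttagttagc
Nfatc2 first start: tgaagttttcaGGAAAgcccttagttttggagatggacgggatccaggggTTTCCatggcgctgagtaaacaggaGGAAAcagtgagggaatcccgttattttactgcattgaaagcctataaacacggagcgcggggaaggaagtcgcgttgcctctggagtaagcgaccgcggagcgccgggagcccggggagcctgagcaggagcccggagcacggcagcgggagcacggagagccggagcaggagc

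The window before the internal start of Rcan1 held 3 NFAT cores, at positions −227 to −223, −193 to −189 and −163 to −159 from the start, and 1 match to the AP-1 motif TGANTCA at −110 to −104. The window before the first start of Rcan1 held neither motif. Windows with at least 3 cores made up 6.39% of all 32851 promoter windows of this length, 55.6% held at least 1, and 6.75% held the AP-1 motif. Among the other members, Nfatc2, Nfatc4 and Ppp3cb each had a window with 3 cores, the first start of Rcan2 had 2, and Ppp3r1 had none. Starts 2 and 3 of Rcan2 had 0 cores, and start 2 of Nfatc2 had 1. Start 3 of Rcan2 also had an AP-1 match, at −25 to −19. The windows differed in base content, from 48.4% G and C before Ppp3cb to 70.8% before Ppp3r1, and the counts were not adjusted for it. The part of the cores in the changes of expression was not tested. A match describes letters only, and the deposited counts are per gene, so the 2 Rcan1 transcripts could not be told apart.

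**Figure D1:**
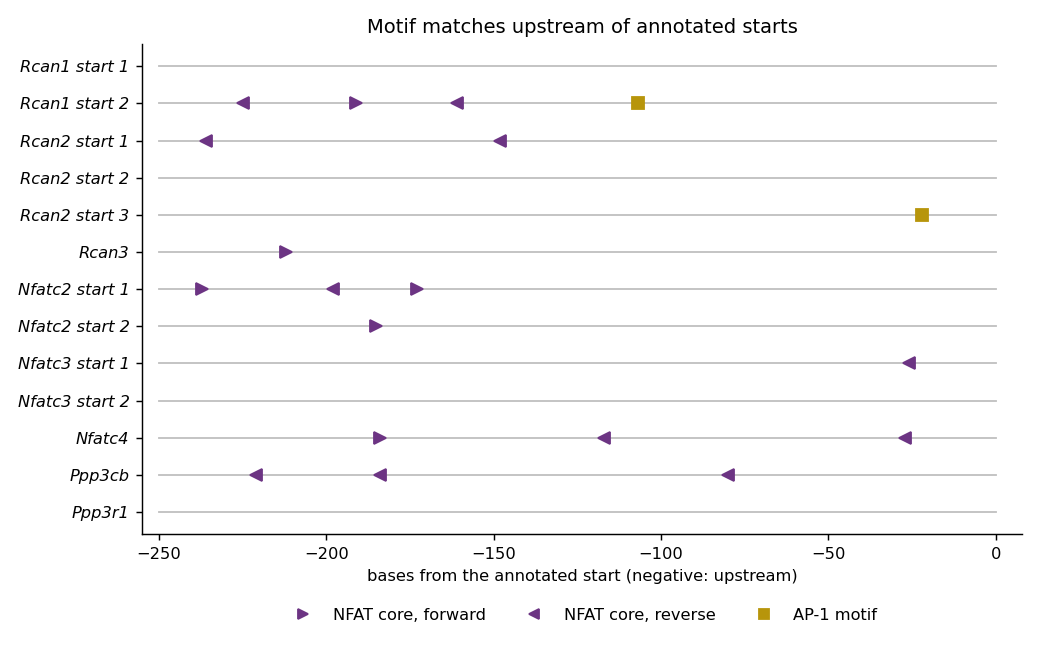
Positions of NFAT cores (triangles, pointing by strand) and AP-1 motifs (squares) in the 250 bases before each RefSeq start of 8 members; the horizontal axis is in bases from the start, and starts are numbered from the 5′ end of the gene. The internal start of Rcan1 (start 2) carries 3 cores and 1 AP-1 motif, and its first start carries none.

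Across the set, transcripts of all 3 Rcan genes and of the 3 tested NFATc genes were lower after the siRNA, Ppp3r1 was higher, and both catalytic subunits stayed within the spread of the libraries. By edgeR's quasi-likelihood test with Benjamini-Hochberg adjustment over 12161 genes, 6 of the 9 tested members were called lower, 1 was called higher and 2 missed the threshold. Of all tested genes 71.3% changed, 35.2% downward and 36.1% upward, so the 7 changed members of 9 are close to the share over all genes. The libraries of the groups did not overlap for 7 of the 9 members, against 57% of all tested genes. The median log2 fold change was −0.18 over the 9 members and −0.0019 over all tested genes. In bulk RNA, fewer cells of a type and less RNA per cell cannot be told apart.

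**Figure D2:**
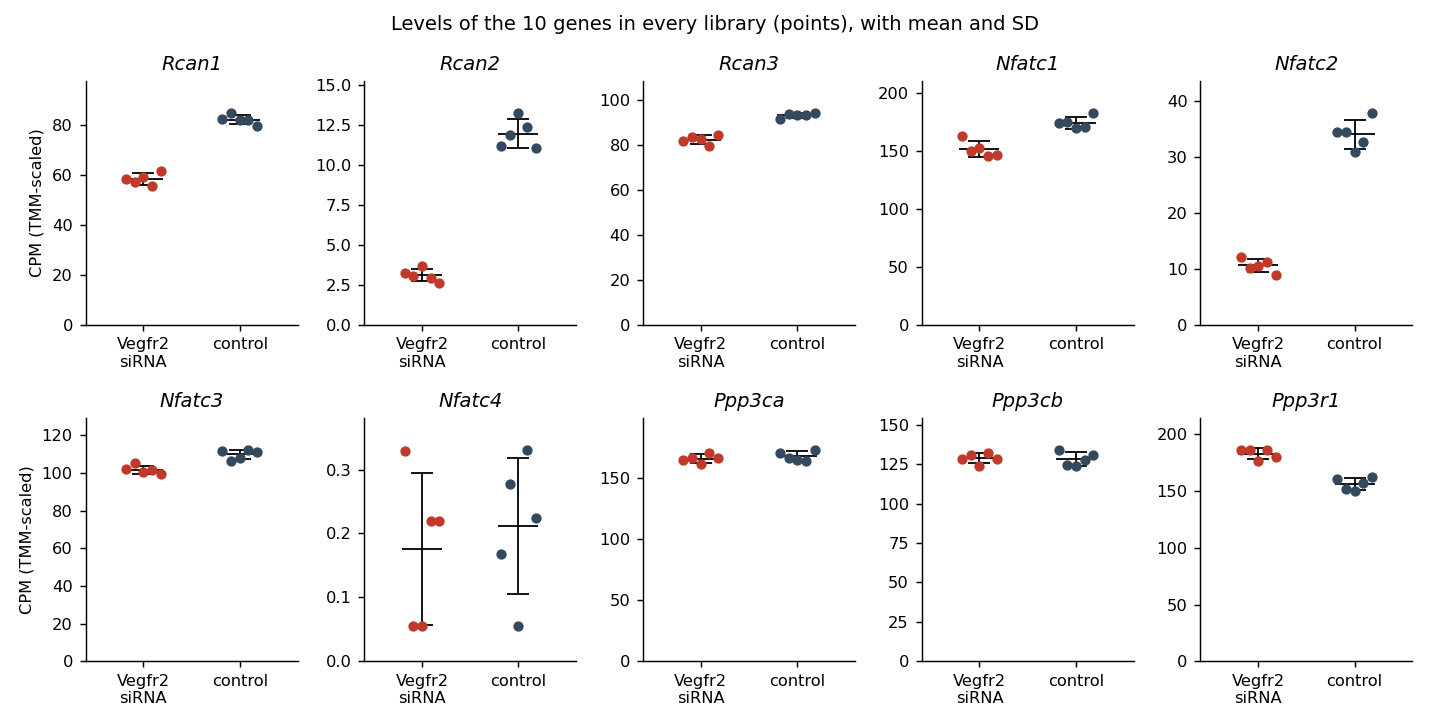
CPM of each of the 10 genes in the 5 Vegfr2 siRNA and 5 control libraries (points), with mean and SD (bars); each panel has its own vertical axis from 0. The groups do not overlap for Rcan1, Rcan2, Rcan3, Nfatc1, Nfatc2, Nfatc3 and Ppp3r1, and they overlap for Ppp3ca, Ppp3cb and Nfatc4.

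Rcan2 had the largest change of the set. Rcan2, a calcineurin regulator that responds to thyroid hormone in human fibroblasts (Entrez gene 53901, GRCm38.p6 chromosome 17, 43801352 to 44039516), measured 3.23, 3.07, 3.68, 2.91 and 2.64 CPM in siRNA libraries, against 11.2, 11.9, 13.3, 12.4 and 11.1 CPM in control libraries, each group in the order of its labels. Every siRNA library lay far below every control library. The means were 3.11 ± 0.387 CPM in siRNA and 12.0 ± 0.901 CPM in control libraries (SD, n = 5 each), 26.0% of the control level. This is a log2 fold change of −1.94 with an SE of 0.0927 (edgeR, adjusted p = 2.56e-22), which ranked 24 from the lowest of 12161 genes. These values rest on 48 to 67 reads per siRNA library and 198 to 239 reads per control library.

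Rcan1, the regulator whose internal start was shown above (Entrez gene 54720, chromosome 16, 92391951 to 92466169), was at 58.6, 57.4, 59.2, 55.5 and 61.9 CPM in siRNA libraries, against 82.4, 85.1, 82.2, 82.1 and 79.9 CPM in control libraries. The lowest control library stood well above the highest siRNA library. Its log2 fold change was −0.49 with an SE of 0.0327 (edgeR, adjusted p = 1.96e-17), and its mean fell to 71.0% of the control level. Rcan3, the third regulator of calcineurin in mammals (Entrez gene 53902, chromosome 4, 135412308 to 135433871), was at 81.8, 83.3, 82.4, 79.6 and 84.5 CPM in siRNA libraries, against 91.3, 93.5, 93.2, 93.0 and 94.2 CPM in control libraries. The groups did not overlap, but the step was small, a log2 fold change of −0.18 with an SE of 0.0290 (edgeR, adjusted p = 8.08e-07). The Rcan genes thus all fell, by amounts that ran from 88.5% of control for Rcan3 to 26.0% for Rcan2.

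Among the transcription factors, Nfatc2 fell most. Nfatc2, also known as NFAT1 and abundant in T cells (Entrez gene 18019, chromosome 2, 168476410 to 168601657), was at 12.0, 10.2, 10.6, 11.3 and 8.92 CPM in siRNA libraries, against 34.6, 34.5, 31.0, 32.7 and 37.96 CPM in control libraries. All siRNA libraries were below a level that every control library exceeded. Its mean was 10.6 ± 1.18 CPM in siRNA and 34.2 ± 2.60 CPM in control libraries (SD, n = 5 each), with a log2 fold change of −1.69 and an SE of 0.0632 (edgeR, adjusted p = 7.11e-23), ranked 54 from the lowest of all tested genes. Rcan2 and Nfatc2 were the 2 members with a fitted log2 fold change of −1 or lower, a size reached by 2.69% of tested genes.

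Nfatc1, the factor of valve formation (Entrez gene 18018, chromosome 18, 80606205 to 80713071), was at 163, 150.3, 153, 146 and 147 CPM in siRNA libraries, against 174, 175, 170, 171 and 183 CPM in control libraries. The nearest libraries of the 2 groups, siRNA replicate 1 and control replicate 3, were closer to each other than to the far ends of their groups. Its log2 fold change was −0.20 with an SE of 0.0284 (edgeR, adjusted p = 3.33e-08). Nfatc3, a further calcineurin-dependent family member (Entrez gene 18021, chromosome 8, 106058818 to 106130537), was at 102, 105, 101, 102 and 99.5 CPM in siRNA libraries, against 112, 107, 108, 112 and 111 CPM in control libraries. It had the smallest fall in the set, a log2 fold change of −0.11 with an SE of 0.0281 (edgeR, adjusted p = 0.000538), and its groups did not overlap.

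Nfatc4 (Entrez gene 73181, chromosome 14, 55824795 to 55833943) was hardly detected. It had 6, 1, 1, 4 and 4 reads in the siRNA libraries and 3, 5, 1, 6 and 4 reads in the control libraries, and the groups overlapped throughout. A difference was not detectable at this depth, and the gene was not tested. Nfat5, a relative outside the set that responds to osmotic stress and has no calcineurin-binding region, was at 752 ± 19.6 CPM in siRNA and 681 ± 19.3 CPM in control libraries (SD, n = 5 each) and rose by 0.14 on the log2 scale (adjusted p = 1.58e-06 by edgeR).

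The calcineurin subunits did not share the fall. Ppp3ca, the alpha catalytic subunit (Entrez gene 19055, chromosome 3, 136669714 to 136937727), was at 164, 166, 161, 171 and 167 CPM in siRNA libraries, against 170.3, 166, 165, 164 and 173 CPM in control libraries. Ppp3cb, the beta catalytic subunit (Entrez gene 19056, chromosome 14, 20499364 to 20546573), was at 128, 131, 124, 132 and 128 CPM in siRNA libraries, against 134, 125, 124, 128 and 131 CPM in control libraries. The groups overlapped for both genes. The log2 fold change of Ppp3ca was −0.016, with a 95% interval from −0.068 to 0.036 (adjusted p = 0.587 by edgeR), and that of Ppp3cb was 0.0034, with an interval from −0.053 to 0.060 (adjusted p = 0.92). The third catalytic gene, Ppp3cc, which is outside the set, was at 53.0 ± 2.87 CPM in siRNA and 46.7 ± 1.45 CPM in control libraries (SD, n = 5 each) and rose by 0.18 on the log2 scale (adjusted p = 6.43e-05).

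Ppp3r1, calcineurin B, the calcium-binding regulatory subunit (Entrez gene 19058, chromosome 11, 17159298 to 17200380), was the one member that rose. It was at 186, 186, 176, 186 and 180.2 CPM in siRNA libraries, against 161, 152, 150.3, 157 and 162 CPM in control libraries. Each siRNA library was above each control library. Its log2 fold change came to 0.22 with an SE of 0.0268 (edgeR, adjusted p = 6.75e-10). Of its annotated exon bases, 14.3% are also exon of Wdr92 on the same strand, whereas no other member shared more than 1.87%. How far reads of Wdr92 enter the level of Ppp3r1 was not tested.

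**Figure D3:**
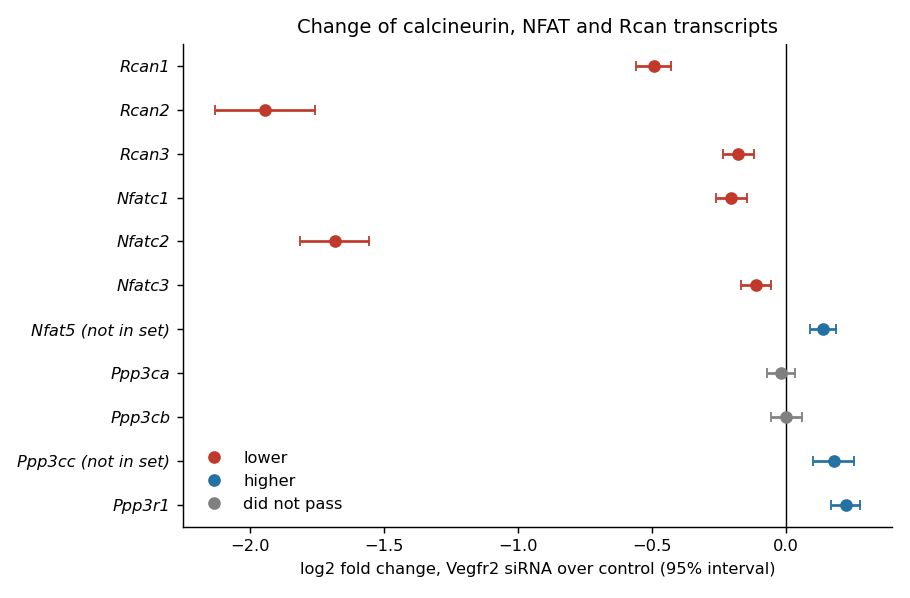
Fitted log2 fold change of Vegfr2 siRNA over control with its 95% interval for the 9 tested members and for Nfat5 and Ppp3cc, which are outside the set; colour gives the call by edgeR. Rcan2 (−1.94) and Nfatc2 (−1.69) stand apart from the others, which lie between −0.49 and 0.22.

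Levels were compared between genes after division by the longest annotated transcript, as CPM per kilobase. In siRNA libraries the order was Ppp3r1 (63.9), Ppp3ca (34.9), Ppp3cb (33.6), Nfatc1 (31.6), Rcan1 (25.2), Nfatc3 (17.0), Rcan3 (16.1), Nfatc2 (1.55), Rcan2 (0.937) and Nfatc4 (0.0465). In control libraries it was Ppp3r1 (54.7), Nfatc1 (36.4), Rcan1 (35.4), Ppp3ca (35.2), Ppp3cb (33.5), Nfatc3 (18.4), Rcan3 (18.2), Nfatc2 (5.00), Rcan2 (3.61) and Nfatc4 (0.056). The libraries of neighbours overlapped from Ppp3ca to Nfatc1 in the siRNA group, and from Nfatc1 to Ppp3cb and between Nfatc3 and Rcan3 in the control group, so the order of those neighbours is not settled. With the union of exons as length, Ppp3r1 stayed first and Nfatc2, Rcan2 and Nfatc4 stayed last in both groups, while the genes between them changed places. Rcan2 and Nfatc2, which had the 2 largest falls, were thus the scarcest of the tested members in both groups.

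Within families, Rcan2 made up 2.22% ± 0.282 of the Rcan sum per kilobase in siRNA and 6.31% ± 0.428 in control libraries (SD, n = 5 each). Rcan3 made up 38.2% ± 0.555 in siRNA and 31.8% ± 0.599 in control libraries. Rcan1 made up 59.6% ± 0.631 in siRNA and 61.9% ± 0.644 in control libraries. Rcan1 and Rcan3 were thus the bulk of Rcan transcripts in both groups. Of the NFATc sum, Nfatc2 took 3.09% ± 0.283 in siRNA and 8.36% ± 0.422 in control libraries. Nfatc1 took 62.9% ± 0.938 in siRNA and 60.8% ± 0.572 in control libraries, and Nfatc3 33.9% ± 1.04 in siRNA and 30.7% ± 0.841 in control libraries. Nfatc2 thus held the smaller share after the siRNA, and the other two the larger. The summed level of the 3 Rcan genes was 42.2 CPM per kilobase in siRNA libraries (40.3 to 44.0) and 57.3 in control libraries (56.2 to 58.5). Relative to the summed catalytic genes Ppp3ca, Ppp3cb and Ppp3cc, Rcan transcripts stood at 0.471 ± 0.0250 in siRNA and 0.655 ± 0.0221 in control libraries, and Ppp3r1 at 0.713 ± 0.00918 in siRNA and 0.625 ± 0.0124 in control libraries. These sums, ratios and shares are given as description, without a test. The sums and ratios used the longest transcript only, and their sizes depend on that choice. With exon-union lengths, Ppp3ca in control libraries stood at 16.8 instead of 35.2 CPM per kilobase. Ppp3r1 stood at 48.4 instead of 54.7 there.

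**Figure D4:**
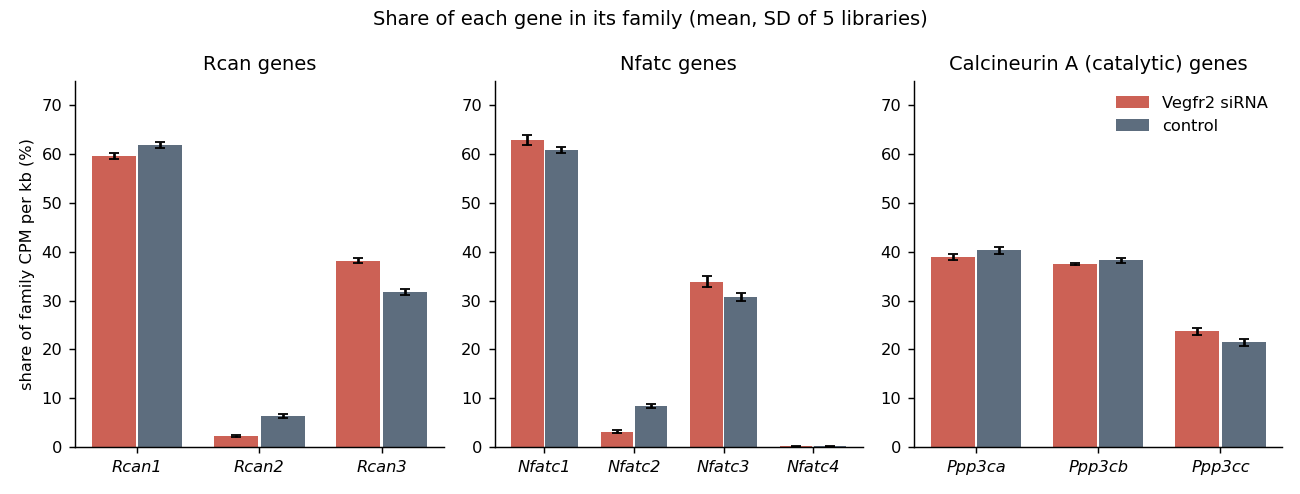
Share of each gene in the summed CPM per kilobase of its family, in percent, as mean and SD of the 5 Vegfr2 siRNA and the 5 control libraries. Rcan2 and Nfatc2 hold a smaller share of their families in the siRNA libraries (2.22% and 3.09%) than in the control libraries (6.31% and 8.36%).

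More of the genes that release, admit or remove calcium were lower than higher. Of 22 genes of calcium release and entry, 21 were tested, of which 4 rose, 12 fell and 5 did not pass. Of those tested 76.2% changed, against 71.3% of all genes, of which 36.1% rose and 35.2% fell. The median log2 fold change of the list was −0.13. Atp2b1, a calcium pump of the plasma membrane, was at 185 ± 5.10 CPM in siRNA and 272 ± 8.19 CPM in control libraries (SD, n = 5 each), and Plcb1, a phospholipase downstream of G proteins, at 1.75 ± 0.409 CPM in siRNA and 5.51 ± 0.450 CPM in control libraries. Atp2a2, the pump that refills the calcium store, rose by 0.23 on the log2 scale. Further genes were picked out with their values known. Among them Plcg1, the phospholipase that VEGFR2 activates, fell by 0.20 on the log2 scale, the store sensors Stim1 and Stim2 by 0.34 and 0.32, and the pump gene Atp2b4 by 1.32. The genes Orai3 and Piezo1 rose by 0.29 and 0.28. Orai1, the main store-operated channel, had a log2 fold change of 0.030 with a 95% interval from −0.0755 to 0.14 (adjusted p = 0.621 by edgeR).

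Kinases, scaffolds and transport receptors that oppose, tether or carry NFAT moved both ways. Of 22 genes 20 were tested, of which 9 rose, 8 fell and 3 did not pass (85% changed, against 71.3% of all genes, of which 36.1% rose and 35.2% fell; median log2 fold change 0.02). Lrrk2, reported in mouse immune cells to hold NFAT in the cytoplasm, was at 87.5 ± 5.94 CPM in siRNA and 47.0 ± 2.18 CPM in control libraries (SD, n = 5 each), and the import receptor gene Kpnb1 rose by 0.38 on the log2 scale. Dyrk1b fell by 0.66 and Itpkb, which phosphorylates the calcium-releasing messenger IP3, by 0.36. Dyrk1a, a kinase that primes NFAT for export and that was picked out with its values known, had a log2 fold change of −0.0010 with a 95% interval from −0.060 to 0.058 (adjusted p = 0.978 by edgeR). Among 12 tested genes of other calcineurin substrates, 4 rose, 6 fell and 2 did not pass, with a median of −0.06. Of these 83.3% changed, against 71.3% of all genes, of which 36.1% rose and 35.2% fell. The transcription factor genes Mef2c (−0.52), Mef2d (−0.46) and Mef2a (−0.32) all fell, and Elk1 rose by 0.45 on the log2 scale.

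Genes reported as responsive to VEGF or NFAT in endothelium moved both ways, with more of them higher than lower. This list, like the others, was written with earlier results of these data known, so its counts are description and not a test. Of 20 genes 17 were tested, of which 10 rose, 4 fell and 3 did not pass (82.4% changed, against 71.3% of all genes, of which 36.1% rose and 35.2% fell; median log2 fold change 0.34, against −0.0019 over all genes). Sele, the adhesion molecule E-selectin, was at 38.4 ± 3.11 CPM in siRNA and 14.0 ± 1.28 CPM in control libraries (SD, n = 5 each), and Ackr3, a scavenging receptor for chemokines and adrenomedullin, at 203 ± 4.49 CPM in siRNA and 140.4 ± 3.52 CPM in control libraries. The immediate early gene Egr1 rose by 1.47 and the growth factor gene Hbegf by 2.94 on the log2 scale. The 4 falls, named with their values known, were Nr4a2 by 0.57, Vcam1 by 0.38, Hlx by 0.24 and Adamts1 by 0.11. Nr4a1, Tnfaip3 and Fgf2 did not pass. Of a list written for lymphatic valves and partners of Nfatc1, 5 of 13 tested rose, 7 fell and 1 did not pass. Of these 92.3% changed, against 71.3% of all genes, of which 36.1% rose and 35.2% fell. The median log2 fold change was −0.24. This list also holds Prox1, Flt4, Lyve1 and Pdpn from the lymphatic endothelial list, so its counts are not of valve genes alone. Itga9, a fibronectin-binding integrin of valves, was at 31.3 ± 2.17 CPM in siRNA and 65.9 ± 2.92 CPM in control libraries, and the connexin gene Gja1 fell by 0.50, Flt4 by 1.06 and Lyve1 by 0.24 on the log2 scale. Foxc2, the partner of Nfatc1 in valves (picked out with its values known), was at 14.7 ± 0.966 CPM in siRNA and 21.03 ± 1.84 CPM in control libraries. Pdpn, also picked out with its values known, rose by 0.81 on the log2 scale, the largest rise of this list. The other rises, named with their values known, were Piezo1 by 0.28, Gata2 by 0.16, Fn1 by 0.12 and Klf2 by 0.084. Gja4 and Prox1, likewise picked out, fell by 1.16 and 0.26. Gja4 had the largest fall of the list, at a low level of 0.702 CPM in siRNA and 1.58 CPM in control libraries.

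**Figure D5:**
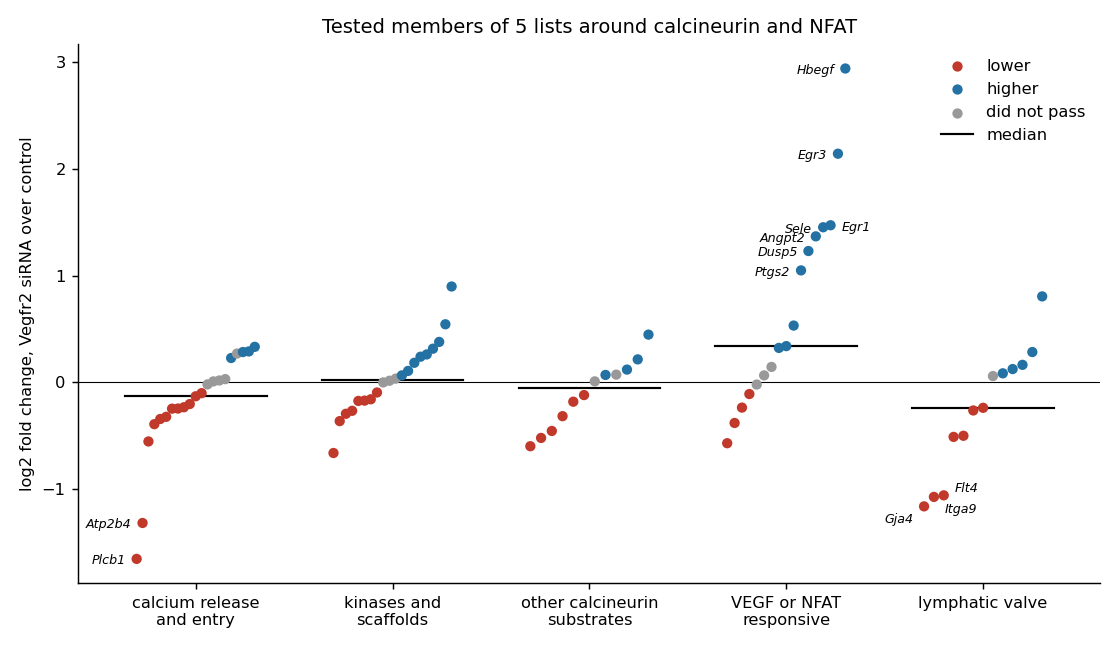
Fitted log2 fold change of Vegfr2 siRNA over control for the tested members of 5 lists around calcineurin and NFAT, ordered by value within a list; colour gives the call by edgeR, horizontal lines are medians, and genes past 1 in either direction are named. The medians lie between −0.24 for the list written for lymphatic valves and partners of Nfatc1 and 0.34 for genes reported as responsive to VEGF or NFAT.

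The genes whose levels followed the most changed Rcan genes most closely were found by Pearson correlation of log2 CPM over the 10 libraries, among 10050 named genes of at least 5 CPM. For Rcan2 they were Xxylt1, a xylosyltransferase (r = 0.998), Susd2, Agtrap, Nrep and Prxl2c (r = 0.996 each), with log2 fold changes from −1.77 for Xxylt1 to −0.63 for Agtrap. For Rcan1 they were Lrp4, a receptor of the LDL receptor family (r = 0.996), Rcn3, Hpcal1, Fkbp7 and Adcy9 (r = 0.993 each), with log2 fold changes from −0.78 for Lrp4 to −0.45 for Fkbp7. The libraries share the difference between groups, and 2122 genes reached an r above 0.9 with Rcan2 and 1992 with Rcan1, so these values describe a broad pattern. An antisense gene covers 16.9% of the exon bases of Rcn3, and since no strand setting is stated its reads may be mixed in.

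The word GTAAAGA in the 3' untranslated region was tied to lower levels in earlier results of these same data. It was present in the longest annotated region of 12.9% of 11763 tested genes other than Kdr, with a median log2 fold change of −0.13 in carriers and 0.016 in the rest. Of the 10 members 1, Nfatc1, carried it, in 2 copies, and Rcan1, Rcan2, Rcan3 and Nfatc2 did not. Its part in the fall of Nfatc1 was not tested. The gap between carriers and the rest comes from the same data as the earlier results, so it is no separate result. Carriers were not matched to the rest by length of the region, and the part of that length was not tested.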

How the data were processed

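Poly(A) RNA was selected with oligo(dT) beads and converted to cDNA with random primers, per the labels' protocols. The authors made the estimated counts (also called expected counts), 1 value per gene and library, and deposited them without normalization. Per the submitters' processing notes the tools were HISAT2 2.2.1, Bowtie2 2.4.5 and RSEM 1.3.1 and the build GRCm38.p6. The role of each tool, the annotation and the strand setting were not given in the sources used here. Columns were matched to samples by title.

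For testing, the estimated counts were rounded to whole numbers. The main test was edgeR's quasi-likelihood F test (edgeR 4.0.16, R 4.3.3) on group alone, with TMM scaling, a robust fit and filterByExpr (minimum count 10). Benjamini-Hochberg adjustment ran over the 12161 genes left, and the threshold was 0.05. The SE and 95% interval of a log2 fold change come from the F statistic. Transcript lengths, exon overlaps and 3' untranslated regions are from GENCODE M21 (GRCm38), and gene coordinates and promoters from RefSeq. Libraries of 1 group differed beyond counting noise (chi-square per degree of freedom 1.50 to 3.47 in 20 pairs), so none was merged as a repeat deposit of another, which does not show that they came from separate cultures.

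Named by rule were Kdr, the members, the relatives Ppp3cc and Nfat5, and from each list the up to 4 genes with the lowest adjusted p. The rule also took the 5 genes closest in pattern to Rcan1 and to Rcan2. Further genes of the lists, marked where they appear, were picked out with their values known. Marker genes were named in the check of cell type. The members and lists were chosen with earlier results of these data known. Cldn11, Ppp3r2 and marker genes with no row in the table were not analysed here, and a gene of the calcium list is not reported here. In a simulation of the siRNA and control libraries with 200 of 12161 genes altered, the test found 36% of genes with a fold of 1.1, 82% of those with 1.25, 94% of those with 1.5 and 96% of those with 2. False calls numbered 11 of 165. In the real libraries a far larger share of genes, 71.3%, was called, so these rates may not hold for them.

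The alternatives tried were RLE or upper-quartile scaling, DESeq2 1.42.0, voom in limma 3.58.1, other filters on low counts (none, or a mean of 5 CPM), a block for replicate number, leaving out single libraries, and exon-union lengths.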

Additional observations from a re-analysis of the deposited data

How the results depend on the processing

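Of 170 recomputed log2 fold changes of the 9 tested members and Kdr over 17 alternatives, 164 kept their direction and their side of the threshold. The other 6 were those of Ppp3cb, which never passed: its log2 fold change of 0.0034 became −0.0127 with upper-quartile factors and −0.00464 at a mean of at least 5 CPM, and ran from −0.00688 to 0.0221 as each library was left out. In all alternatives 6 members were lower and 1 higher. Rcan2 ran from −2.01 to −1.89 and Nfatc2 from −1.73 to −1.63 without single libraries. Of 204 recounts of the gene lists, 203 stayed within 1.5 times; falls among genes responsive to VEGF or NFAT numbered 2 instead of 4 at a mean of at least 5 CPM, where fewer genes were tested. The replicate number as a block changed no call (Rcan2 −1.94, adjusted p = 1.36e-18 by edgeR). Same-numbered libraries did not deviate together (correlations from −0.0745 to 0.0198 over genes), so the numbers were not taken to pair samples. With exon-union lengths, 32 of 40 levels and family shares moved by more than 1 SD. Low depth left Nfatc4 untested; without a filter its log2 fold change had a 95% interval from −1.26 to 0.75.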
